A study of Mus musculus with 6 samples.

Results

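The Hedgehog genes described here are the ligand gene Shh, the receptor gene Ptch1, the coreceptor genes Cdon, Boc and Gas1, the antagonist gene Hhip, the transducer gene Smo and the transcription factor genes Gli1, Gli2 and Gli3. They were chosen by gene symbol in the table that pairs the array's probes with genes, a rule that uses no measured value. Earlier results of these data were known when the choice was made. All 10 genes, of 19057 named on the array, had a probe, and 19 of the 45281 probes on the array were theirs. RNA was measured on 6 Illumina mouse whole-genome arrays, in GFP-positive cells sorted from heads at embryonic day 9.5. For 3 arrays the cells were cranial neural crest, labelled by the cross Wnt1-Cre x Z/EG. For the other 3 they were cranial mesoderm, labelled by the cross Mesp1-Cre x Z/EG. All embryos had a mixed background of C57Bl/6, 129 and ARC/s. Z/EG is a reporter that switches to GFP once Cre has acted, so both groups carry it and a Cre transgene. Wnt1-Cre acts in the dorsal neural tube as well as in the crest that leaves it, and Mesp1-Cre acts in early mesoderm, so that its descendants in vessels, blood and muscle are labelled too. The series concerns targets of TWIST1 in the mesoderm, and this comparison asks what separates the sorted populations. The labels describe independent isolations but not litters or embryo numbers, so p-values set group differences against the spread between these isolations.

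Hedgehog ligands are secreted proteins that bind Patched receptors on the receiving cell. Patched holds Smoothened inactive, and ligand binding releases this block at the primary cilium. GLI2 and GLI3 are then spared from processing into repressors, and the activated pathway switches on Gli1, Ptch1 and Hhip, which are common readouts of signalling. Cdon, Boc and Gas1 encode cell surface proteins that bind the ligand together with PTCH1, while HHIP sequesters it. In the head, Shh from the ventral midline of the brain, the prechordal plate, the pharyngeal endoderm and the facial ectoderm is needed for the survival of crest and for the growth of the face.

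The sorted populations carried their marker genes. In the crest arrays, 6 of 6 tested crest markers were higher, and in the mesoderm arrays, 6 of 6 tested head mesoderm markers were higher, by limma at an adjusted p under 0.05. The early crest gene Foxd3 and the mesoderm genes Mesp1 and Myf5 were detected on no array. Detection means that a probe's signal exceeded the array's negative controls at a detection p under 0.05, and between 30.8% and 34.1% of probes did so on each array. The median signal was 99.8 to 131 intensity units, and the fitted background was 97 to 124. Across tested genes, which are not independent replicates, Pearson's r lay between 0.9601 and 0.9865 within crest, between 0.9486 and 0.9681 within mesoderm, and between 0.8357 and 0.9085 for arrays of unlike groups. All arrays lay on 1 chip with the groups at separate positions, so position and cell type cannot be told apart.

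Of the 10 genes, 6 were measurable. Shh, Cdon and Ptch1 were higher in crest. Smo, Gli2 and Gli3 were detected on all 6 arrays and did not pass the test. Gli1, Boc, Gas1 and Hhip were detected on no array in either group. A gene was tested where a probe was detected on at least 3 of the 6 arrays, and it was represented by its brightest such probe. Of all 9214 genes tested, 18.3% were called in either direction, 8.25% as higher in crest and 10.1% as higher in mesoderm. Of the 1687 genes called, 760 lay toward crest and 927 toward mesoderm, and under median scaling, which moved the median log2 difference of all genes to -0.30, the split was 729 and 595. Among the 6 tested Hedgehog genes 3 were called as higher in crest and 0 as higher in mesoderm, and their median log2 difference, mesoderm minus crest, was -0.94 against -0.07 over all genes tested. Both values include Shh, which passed the detection filter only through the crest arrays. Of the 5 genes detected in both groups 2 were called, and their median was -0.69.

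**Figure D1:**
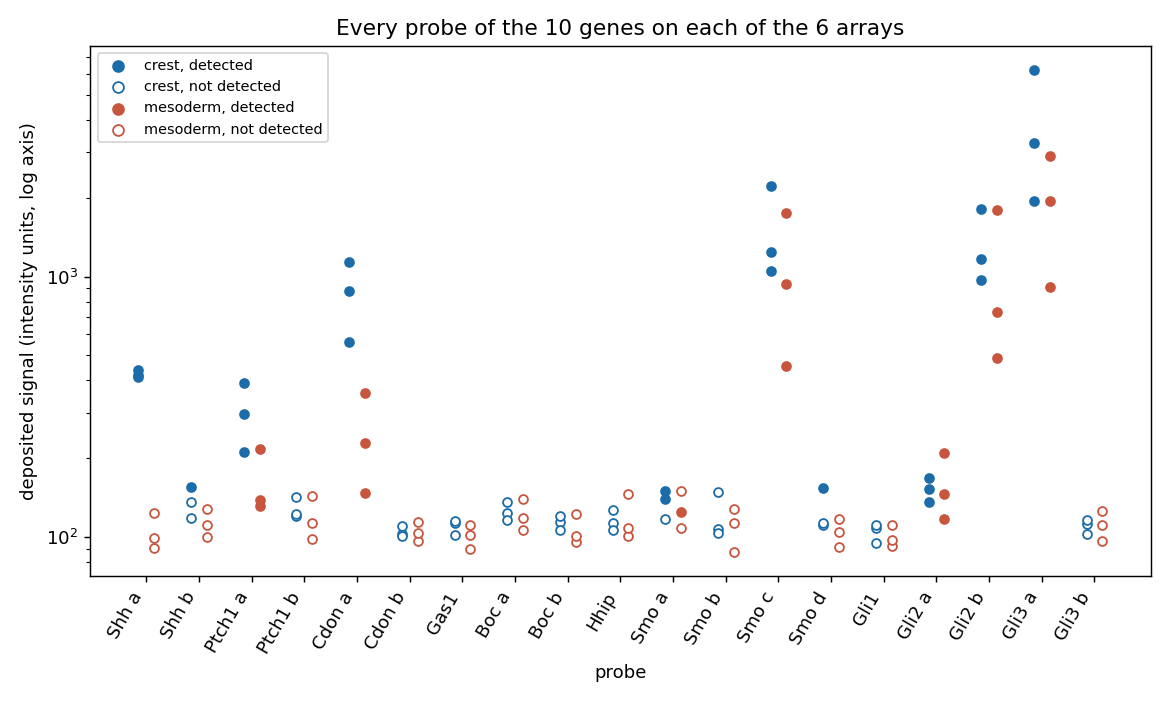
Deposited signal (intensity units, log axis) of each of the 19 probes on each of the 6 arrays, with letters separating probes of 1 gene. Filled points were detected and open points were not. Most genes have 1 bright probe beside others near background, and all probes of Gli1, Boc, Gas1 and Hhip lie near background.

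Shh, the ligand, was detected in crest alone. Its brighter probe read 411, 439 and 419 intensity units on crest replicates 1, 2 and 3, against 90.4, 124 and 98.8 on mesoderm replicates 1, 2 and 3. Every crest array was detected and no mesoderm array was, so the groups did not overlap and the mesoderm value is only a bound. After background correction and normalization the level averaged 8.20 ± 0.40 log2 units over the crest arrays and 4.53 ± 0.10 over the mesoderm arrays (SD, n = 3 per group). Shh was at least 7.36-fold higher in crest, taking each mesoderm array at its lowest detected level. This bound holds only on the background-corrected scale with the offset of 16 that is added to corrected signals. The fitted log2 difference was -3.67 ± 0.25 (SE, limma adjusted p = 2.89e-05), with the mesoderm end set by background. It shrank to -2.52 with an offset of 50, to -1.90 without background correction and to -1.85 with the authors' normalized values. Shh stayed called in each of these. With 1 crest array left out, Shh was detected on too few arrays to be tested. With a filter of 2 arrays, chosen after seeing the data, its limma adjusted p was 0.000124 to 0.000379 over the arrays left out. Under either filter Shh entered the test through the crest arrays alone, so the filter tied its direction. The second Shh probe was detected on crest replicate 1 alone, at 155 units, and was not tested. In a bulk sort, fewer cells of a type and less RNA per cell cannot be told apart, which holds for each gene below.

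Shh is normally made by midline and epithelial cells, so markers of such cells were examined in the same arrays. Of 5 floor plate and notochord markers with a probe, 2 were tested and 0 were called, Chrd and Foxj1, while Foxa2, Noto and Spon1 were detected on no array. Their summed normalized signal was 187.9 to 215.7 in crest and 175.4 to 190.8 in mesoderm. Of 8 epithelial markers, Epcam, Pax9, Trp63 and Grhl3 were detected on no array, and of 4 tested, 1 was called toward mesoderm and 0 toward crest. That gene was Sox17, which endothelium also expresses. The summed epithelial signal was 598.4 to 624.2 in crest and 1118 to 1176 in mesoderm. Without Sox17 the order of the groups turned, with sums of 572.9 to 594.5 in crest and 426.8 to 500.4 in mesoderm. The 3 other tested markers, Cdh1, Krt8 and Krt18, had log2 differences of -0.17, -0.61 and -0.02 (limma adjusted p = 0.691, 0.0721 and 0.969). Neural tube markers also differed between the groups. Of 9 with a probe, 6 were tested and 6 were higher in crest, among them En1, En2 and Wnt1, with a summed signal of 5115 to 8616 in crest and 325.7 to 527.7 in mesoderm. Sox1, Sox3 and Pax6 were detected on no array. The part of epithelial or neural tube cells in the Shh result, and in those for Cdon and Ptch1, was not tested. Endothelial and blood cells were on the other side. Of 9 tested endothelial markers 8 were higher in mesoderm, including Esam, Emcn and Cldn5, and of 9 tested blood markers 8 were, including Pf4 and Tal1. The endothelial sum was 339.4 to 391.1 in crest and 22210 to 27950 in mesoderm, and the blood sum was 268.1 to 3310 and 17540 to 25350. Their part in the lower mesoderm values was not tested either.

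**Figure D2:**
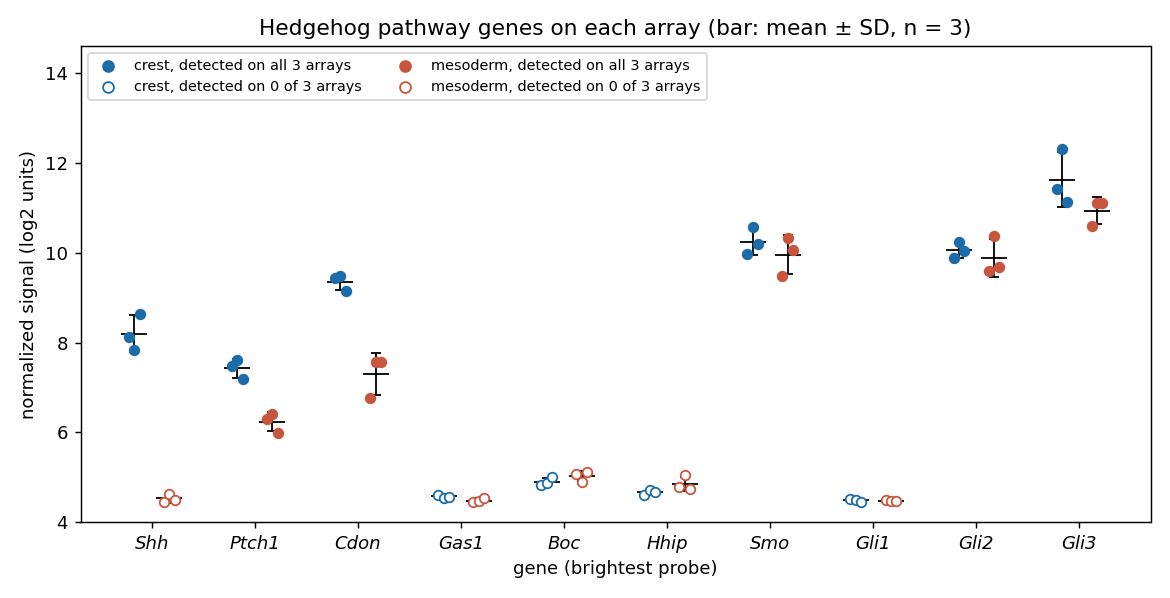
Normalized signal (log2 units) of the brightest probe of each of the 10 genes, with points for single arrays and bars for the mean ± SD of 3 arrays. Open points mark a group in which the probe was detected on 0 of 3 arrays. Shh, Ptch1 and Cdon separate the groups, Smo and Gli2 overlap, and Gli1, Boc, Gas1 and Hhip sit at the floor in both.

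Receptors and coreceptors were next. Cdon encodes an immunoglobulin-family coreceptor, and its brighter probe read 882, 1135 and 560 units in crest and 147, 357 and 228 in mesoderm. The lowest crest array was above the highest mesoderm array, and all 6 were detected. Its level averaged 9.35 ± 0.18 log2 units over the crest arrays and 7.30 ± 0.47 over the mesoderm arrays (SD, n = 3 each). The log2 difference was -2.05 ± 0.28 (SE, limma adjusted p = 0.00126). The call held with each array left out in turn, with adjusted p-values of 0.00302 to 0.00774.

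Ptch1, the receptor and a readout of the pathway, read 297, 391 and 211 units in crest and 131, 218 and 139 in mesoderm. The raw signals overlapped, since mesoderm replicate 2 was above crest replicate 3. On the normalized scale the crest arrays stood at 7.47, 7.62 and 7.20 log2 units and the mesoderm arrays at 6.31, 6.40 and 5.99, with no overlap. Such separation was seen in 37.2% of all genes tested, and in 19.6% with crest the higher. The difference was -1.20 ± 0.23 (SE, limma adjusted p = 0.00769), and with 1 array left out it lay between -1.31 and -1.08 with adjusted p-values of 0.0168 to 0.0334. Without background correction it was -0.65 (adjusted p = 0.0167), and with the authors' values -0.63 (adjusted p = 0.0175). The other Ptch1 probe was detected on no array. Over the 6 arrays, the tested genes whose levels followed Ptch1 most closely by Pearson's r were Siah1b (0.9979), Trp53bp2 (0.9924) and Nup107 (0.9916), which differed between the groups by -1.07, -1.28 and -1.10. These are descriptions over arrays that also differ in cell type.

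The deposited detection p-values of Ptch1, Cdon and Smo sat beside the wrong probe of the same gene, and those of Boc and Gli2 were also exchanged. For Cdon the table pairs 882 units with a p of 0.866 and the 103 units of its other probe with a p of 0. Reordering the p-values within each gene brought all 19 probes to within 0.0021 of the p that their signals imply. Which of a gene's probes a bright signal belongs to is therefore uncertain, but the gene is not. Filtering on the p-values as deposited kept the dim probes instead and gave 0.07 for Cdon and -0.13 for Ptch1, neither of them called (limma adjusted p = 0.787 and 0.721).

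Boc and Gas1, the other coreceptor genes, gave no measurable level. Gas1 read 102 to 115 units in crest and 89.5 to 111 in mesoderm. The brighter Boc probe read 123, 136 and 116 units in crest and 106, 139 and 118 in mesoderm. Hhip, the antagonist and a readout, read 113, 127 and 106 units in crest and 100 to 146 in mesoderm. None of these was well above background on any array. Gas1 and Hhip have 1 probe each, so a probe that works poorly and a gene that is little expressed cannot be told apart here.

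Smo, which passes the signal into the cell, read 1243, 2226 and 1055 units in crest and 452, 1758 and 940 in mesoderm. The groups overlapped, and the difference was -0.29 ± 0.29 (SE, limma adjusted p = 0.539, with a 95% interval of -0.94 to 0.36). Its 3 other probes lay near background. With the p-values as deposited, 1 of these stood for the gene and gave 0.12.

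Of the GLI factors, Gli2, the main activator, and Gli3, the main repressor, were both well above background. Gli2 read 1171, 1825 and 967 units in crest and 484, 1805 and 728 in mesoderm by its brighter probe. Mesoderm replicate 2 was among the highest arrays, so the groups overlapped. The difference was -0.18 ± 0.27 (SE, limma adjusted p = 0.7, with a 95% interval of -0.79 to 0.43). The second Gli2 probe, also detected on all 6 arrays, gave 0.41 ± 0.28 (adjusted p = 0.364 over all kept probes), so the probes differed in sign, and their mean gave 0.11. Gli3 read 3248, 6220 and 1951 units in crest and 908, 2903 and 1954 in mesoderm. On the normalized scale its lowest crest array stood at 11.13 log2 units and its highest mesoderm array at 11.11, so the groups touched without overlapping. The difference was -0.69 ± 0.33 (SE, limma adjusted p = 0.194, with a 95% interval of -1.45 to 0.07), and it was -0.35 without crest replicate 2, the highest array. Neither interval excludes a difference of the size seen for some called genes, so equal levels are not shown.

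Gli1, a target and amplifier of the pathway, read 108, 111 and 94.97 units in crest and 91.9, 111 and 97.5 in mesoderm. Each of these values lay below the fitted background of its array, and none was detected. Ptch1, which is switched on by the same signal, was detected on all 6. The array holds 1 probe for Gli1, so the pair cannot be set against each other in level.

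**Figure D3:**
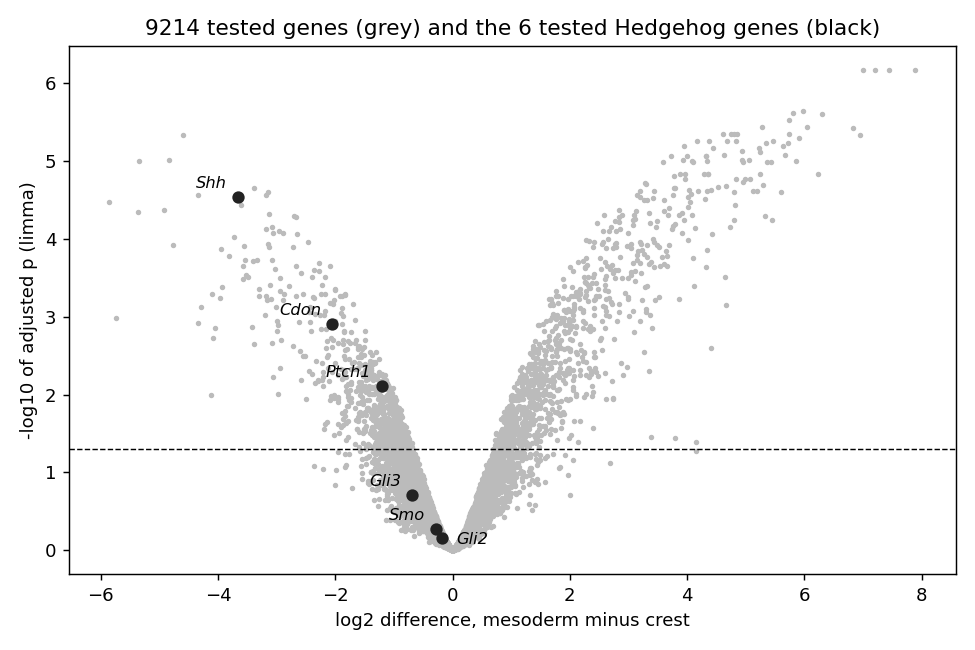
Log2 difference (mesoderm minus crest) against the -log10 of limma's adjusted p for 9214 tested genes in grey, with the 6 tested Hedgehog genes in black and the threshold as a dashed line. Shh, Cdon and Ptch1 lie above the line toward crest, and Gli3, Smo and Gli2 lie below it.

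RefSeq promoter sequences, 250 bases before to 50 after a start site on GRCm38.p6, were at hand for 7 of the 10 genes, Shh, Gli1 and Boc not among them. Ptch1 and Cdon are shown because they were called, Gli2 because it holds a match to the core of the GLI binding motif, and Nkx2-9 as a called target with such a match. Capitals mark matches to CCACCCA or ACCACCC, 7-letter pieces of the consensus that overlap each other, searched on both strands. The Ptch1 window is chr13:63565686-63565985, minus strand, 7725 bases inside the gene's outermost start. The Cdon window is chr9:35451826-35452125, plus strand, 30548 bases inside its gene. The Gli2 window is chr1:119053570-119053869 and the Nkx2-9 window chr12:56613235-56613534, both on the minus strand.
Ptch1: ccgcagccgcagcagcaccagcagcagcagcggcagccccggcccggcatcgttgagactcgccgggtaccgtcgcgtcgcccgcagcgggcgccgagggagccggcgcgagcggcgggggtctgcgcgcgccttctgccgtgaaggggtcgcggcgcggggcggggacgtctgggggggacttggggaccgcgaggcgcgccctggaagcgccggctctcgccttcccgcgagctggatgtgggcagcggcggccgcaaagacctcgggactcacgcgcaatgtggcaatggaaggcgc
Cdon: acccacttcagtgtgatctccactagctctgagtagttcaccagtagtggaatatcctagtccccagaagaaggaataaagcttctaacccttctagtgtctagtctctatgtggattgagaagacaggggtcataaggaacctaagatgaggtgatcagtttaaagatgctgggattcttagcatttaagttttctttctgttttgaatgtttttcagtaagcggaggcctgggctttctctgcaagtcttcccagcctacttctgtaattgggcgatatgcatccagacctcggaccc
Gli2: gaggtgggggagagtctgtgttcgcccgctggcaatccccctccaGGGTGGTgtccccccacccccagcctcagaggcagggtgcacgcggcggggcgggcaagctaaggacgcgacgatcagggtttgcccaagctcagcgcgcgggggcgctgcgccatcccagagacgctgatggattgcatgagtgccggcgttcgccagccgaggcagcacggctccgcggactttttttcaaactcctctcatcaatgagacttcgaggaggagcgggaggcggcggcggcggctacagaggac
Nkx2-9: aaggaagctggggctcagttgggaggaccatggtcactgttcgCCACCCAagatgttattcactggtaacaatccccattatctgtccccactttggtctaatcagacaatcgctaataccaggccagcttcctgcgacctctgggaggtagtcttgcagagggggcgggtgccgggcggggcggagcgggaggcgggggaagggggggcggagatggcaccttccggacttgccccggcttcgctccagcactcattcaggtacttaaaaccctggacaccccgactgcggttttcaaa
The Gli2 match, ACCACCC on the opposite strand, begins at position -205 from the start site, and the Nkx2-9 match, CCACCCA, begins at position -207. The windows of the other called targets, Nkx6-2 and Foxd1, and of the receptor gene Lrp2 were searched too and held no match. Of 7 members' windows, 1 held either motif, and 12.2% of 32851 mouse promoter windows did. CCACCCA alone was in 9.3% of them and ACCACCC alone in 4.61%. A match is a run of letters and not a binding site, and a window without one says nothing about sites elsewhere.

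Of 9 genes for making and releasing the ligand with a probe, 4 were tested and 0 were called by limma, with a median log2 difference of 0.44. Disp1, which releases the lipid-bearing ligand from producing cells, read 453, 382 and 282 units in crest and 310, 546 and 485 in mesoderm. Its normalized arrays did not overlap, and the difference was 0.81 ± 0.27 (SE, limma adjusted p = 0.0725), which passed with array weights (adjusted p = 0.0217). Hhat, the acyltransferase of the ligand, differed by 0.19 ± 0.23 (limma adjusted p = 0.628). Scube1 and Scube3, whose relatives help release the ligand, differed by 0.68 ± 0.43 and -0.01 ± 0.26 (limma adjusted p = 0.32 and 0.983). The other Hedgehog ligand genes were not tested. Dhh was detected on no array, and Ihh on crest replicate 2 alone.

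Among genes that carry or modify the signal, 23 of 28 with a probe were tested, with 2 called toward crest and 0 toward mesoderm. Their median log2 difference was -0.19. Lrp2, a large endocytic receptor that binds SHH in the forebrain, read 384, 773 and 318 units in crest and 112, 185 and 103 in mesoderm. The groups did not overlap, and the difference was -3.02 ± 0.38 (SE, limma adjusted p = 0.000761). Lrp2 was detected on 2 of 3 mesoderm arrays, so part of its measured difference depends on signals close to background, and it was -1.65 without background correction and -1.61 with the authors' values. Evc, which acts with Smoothened at the base of the cilium, read 267, 323 and 250 units in crest and 141, 221 and 129 in mesoderm, a log2 difference of -1.12 ± 0.29 (SE, limma adjusted p = 0.0287). Its call was lost without crest replicate 1, 2 or 3 or mesoderm replicate 3, with limma adjusted p-values of 0.0629, 0.0669, 0.129 and 0.0587. Evc also lost its call without the detection filter. Its partner gene Evc2 differed by -0.92 ± 0.28 (limma adjusted p = 0.0568). With the p-values as deposited, other probes of Lrp2 and Evc stood for the genes and gave 0.03 and 0.02.

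Sufu, the inhibitor that binds GLI proteins, read 683, 745 and 560 units in crest and 239, 407 and 381 in mesoderm. Its groups did not overlap, and its difference was -0.77 ± 0.26 (SE, limma adjusted p = 0.074), which passed without mesoderm replicate 3 (adjusted p = 0.0423), under median scaling and with array weights. Kif7, the kinesin that regulates GLI processing at the cilium tip, was below detection on all 6 arrays. Its deposited p-values lay up to 0.74 from what its signals imply and it has 1 probe, so even that reading is uncertain.

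Structural genes of the primary cilium, where the signal is transduced, mostly did not pass. Of 29 with a probe, 22 were tested, with 3 called toward crest and 0 toward mesoderm, and with a median log2 difference of -0.16. Dync2h1, the heavy chain of the motor that returns cargo from the cilium tip, differed by -1.51 ± 0.39 (SE, limma adjusted p = 0.0281). It read 595, 926 and 543 units in crest and 140, 418 and 289 in mesoderm. Its call was lost without any 1 of the crest arrays (limma adjusted p-values 0.0523, 0.0912 and 0.107) and without the detection filter (0.113). It was also lost with the detection p-values as deposited. Tctn2 and Mks1, of the transition zone at the cilium base, differed by -1.24 ± 0.26 and -1.12 ± 0.23 (SE, limma adjusted p = 0.0113 and 0.0102). Both calls were lost without crest replicate 3 (adjusted p = 0.0594 and 0.0651) and without mesoderm replicate 1 (0.0558 and 0.0519). Over the production, transduction and cilium lists together, crest was the higher in 5 of 49 tested genes and mesoderm in 0, against 8.25% and 10.1% of all genes. The count was 1 without crest replicate 3, 3 on leaving out replicate 1 or 2 of crest or replicate 1 of mesoderm, 7 without mesoderm replicate 3 (6 of them higher in crest) and 5 without mesoderm replicate 2.

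**Figure D4:**
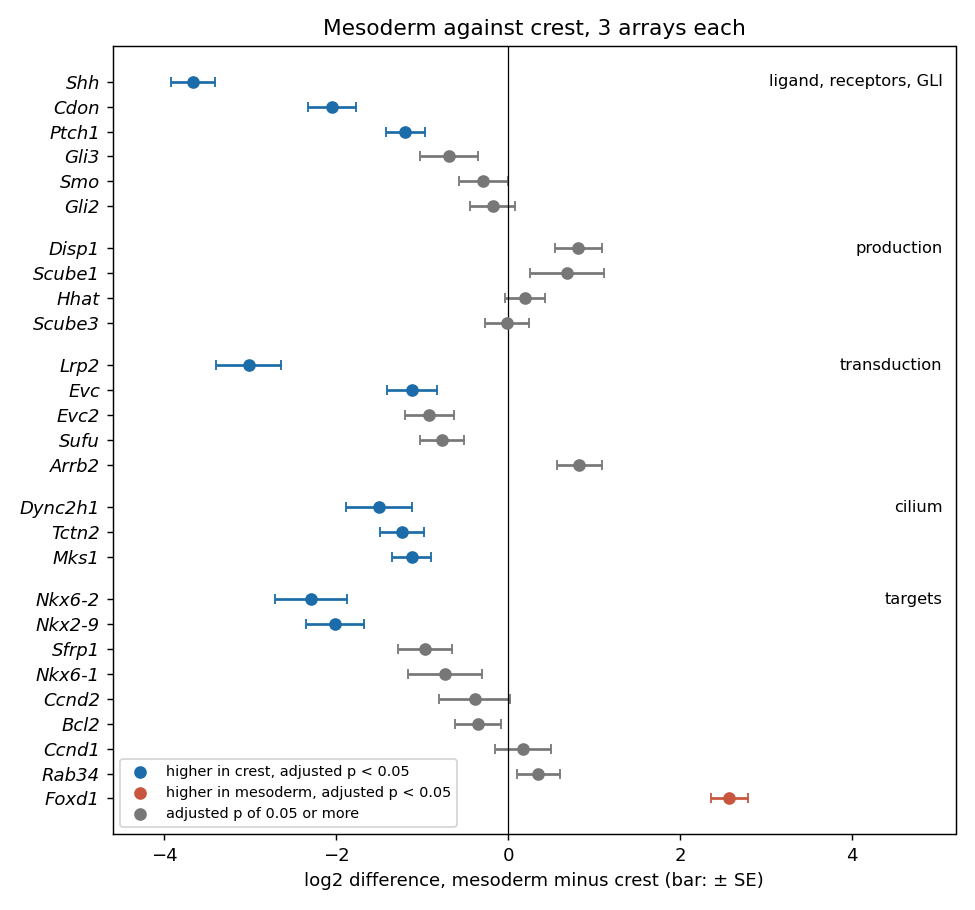
Log2 difference, mesoderm minus crest, with bars of ± SE from limma, 3 arrays per group. The panel shows the 6 tested Hedgehog genes, every tested production and target gene, and from the transduction and cilium lists the called genes with Evc2, Sufu and Arrb2. Coloured points passed an adjusted p of 0.05, with 10 genes toward crest and Foxd1 alone toward mesoderm. Whether the signal plotted for Bcl2 is that gene's is uncertain, since its deposited detection p-values still lay up to 0.4402 from those its signals imply after reordering among its probes.

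Of 18 genes with a probe that Hedgehog signals are known to switch on in vertebrate embryos, 9 were tested, with 2 called toward crest and 1 toward mesoderm, against 8.25% and 10.1% of all genes. The median log2 difference was -0.39. Each of the 3 called genes was detected in 1 group alone and passed the detection filter only through the group where it was high, so the filter tied its direction. Of the 6 other tested genes, 0 were called. The 2 were Nkx6-2 and Nkx2-9, homeobox genes of the ventral neural tube. Nkx6-2 read 282, 198 and 276 units in crest and 107, 123 and 104 in mesoderm, and was at least 3.40-fold higher in crest (limma adjusted p = 0.00651). Nkx2-9 read 227, 189 and 220 units in crest and 99.3, 132 and 103 in mesoderm, and was at least 2.61-fold higher in crest (limma adjusted p = 0.00395). These bounds belong to the background-corrected scale with an offset of 16, and the p-values are those of the fitted differences. Without background correction the log2 difference was -1.04 for Nkx6-2 and -0.84 for Nkx2-9, and with the authors' values -1.01 and -0.82. The fitted values were -2.29 and -2.01. Every call was kept, but over all settings with 6 arrays the highest limma adjusted p was 0.0497 for Nkx6-2 and 0.0292 for Nkx2-9. Both passed detection on all 3 arrays of crest and failed it on all 3 of mesoderm, as Shh did. With 1 crest array left out they were detected on 2 arrays and not tested under the filter of 3. With a filter of 2 arrays, and each crest array left out in turn, Nkx6-2 differed by -2.70 to -1.95 and Nkx2-9 by -2.29 to -1.74, all called.

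Toward mesoderm, Foxd1, a forkhead gene of head mesenchyme that responds to Hedgehog signals in the face, read 186, 315 and 231 units in mesoderm and 133, 132 and 111 in crest. It was detected on the 3 mesoderm arrays alone. There it was at least 4.67-fold higher on the background-corrected scale with an offset of 16. Its fitted log2 difference of 2.57 (limma adjusted p = 8.02e-05) fell to 1.17 without background correction and 1.13 with the authors' values, both still called. Without any 1 mesoderm array it was likewise not tested under the filter of 3 arrays, and with a filter of 2 it differed by 2.55 to 2.62 and was called. The forkhead genes Foxf1 and Foxf2, targets in mesenchyme, were detected on no array. Nkx2-2, of the most ventral neural tube, was detected on 2 crest arrays and no mesoderm array and so was not tested. Nkx6-1, a broader ventral gene, was detected on all 6 arrays at 753, 346 and 483 units in crest and 207, 404 and 232 in mesoderm. The groups overlapped and the difference was -0.73 ± 0.43 (limma adjusted p = 0.284). Sfrp1, a WNT inhibitor, differed by -0.97 ± 0.32 (limma adjusted p = 0.0675), and the cyclin genes Ccnd1 and Ccnd2 by 0.17 ± 0.32 and -0.39 ± 0.41 (limma adjusted p = 0.781 and 0.572).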

How the data were processed

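The 6 arrays were compared, 3 per sorted population. Per the labels' protocols, RNA was amplified with a TotalPrep kit and hybridized as biotin-labelled cRNA. No source used here names the scanner or summary software. Per the file headers, the authors' deposited table gives a linear signal intensity and a detection p-value for each probe and array. The signals are not background-subtracted or scaled between arrays. The deposited log2 values equalled quantile-normalized log2 signals to within 0.00571 and served as an alternative.

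In 27.1% of probes the deposited p-value was off by over 0.06 from a median taken along the probes in order of signal. It was re-read from that median. Of 5300 such probes traced to lines within 12 of their own, 4472 matched a probe of the same gene, and 12 that matched other genes were left out. Probes with 1 symbol numbered 34885, for 19057 genes. Symbols were checked by gene number for 34807 probes, and 0 changed.

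Signals were corrected with limma 3.58.1 (R 4.3.3) by its normal-exponential model, with an offset of 16, then quantile-normalized and log2-transformed. Probes needed a detection p under 0.05 on 3 of 6 arrays. Each gene was read from its brightest kept probe. The groups were compared by limma (lmFit and eBayes) over 9214 genes, two-sided, with Benjamini-Hochberg adjustment and a threshold of 0.05. A fold given as a lower bound sets each array of the undetected group at its lowest detected level, or at the probe's own level if higher. The limma p-value of such a gene tests its fitted difference, not the bound. The procedure was tested on simulated data. The number of arrays limits the precision.

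The genes and lists were chosen with earlier results of these data known. All 10 Hedgehog genes and all their probes are named. Of the other lists, called genes are named up to the 6 largest per direction, with a few named whatever they did. Sfrp1, Evc2, Arrb2, Hhat, Scube1, Scube3, Nkx6-1, Ccnd1 and Ccnd2 were added after their values were seen. Alternatives were background correction, offset, scaling, detection filter, probe summary, array weights, a replicate block and arrays left out. The filter at 2 arrays was chosen after seeing the data.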

Additional observations from a re-analysis of the deposited data

How the results depend on the processing

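The count of 1687 genes became 2762 with array weights (1464 higher in crest), and median scaling left 595 higher in mesoderm. With 1 array left out it was 807 to 1351, with 237 to 718 higher in crest and 433 to 758 in mesoderm. With a filter of 2 arrays these were 959 to 1793, 327 to 797 and 632 to 996, with 505 higher in crest without crest replicate 2 and 427 without mesoderm replicate 1. The 3 Hedgehog genes called remained 3 in number except with deposited detection p-values in the filter (1) and with 1 array left out (2 to 3, since Shh was then not tested). Deposited p-values were used there in the filter alone. Of the 5 other pathway genes called, 3 were counted without a detection filter (3 in crest) and 2 with deposited p-values. Array weights gave 10 (9 in crest, 1 in mesoderm). Leaving out 1 array gave 1 to 7 (1 to 6 in crest, 0 to 1 in mesoderm), and 1 to 8 with a filter of 2 arrays (1 to 6 and 0 to 2). Target genes called were 5 with array weights (4 in crest), 1 to 3 with 1 array left out (0 to 3 in crest, 0 to 1 in mesoderm, since genes detected in 1 group alone were then not tested when an array of that group was left out), and 3 to 5 with a filter of 2 arrays (2 to 4 and 1 to 1). Signs turned with deposited p-values for Smo (0.12), Cdon (0.074), Lrp2 (0.029), Sufu (0.032) and Evc (0.017), where a dim probe stood for the gene, and for Gli2 with the mean of its probes (0.11). Of 396 values for 17 named genes, 27 lost a call and 7 gained one.

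Same-numbered replicates deviated from their group means with correlations of 0.1158, 0.32 and 0.01738, so the numbers were not taken as pairs, and not every array correlated best with its own number. With the replicate as a block, 1946 genes were called, 3 of them Hedgehog genes, 8 other pathway genes (7 in crest, 1 in mesoderm) and 4 targets. Signals near background limit Shh, Lrp2, Nkx6-2, Nkx2-9 and Foxd1, whose fitted differences fall without background correction.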
